A study of Mus musculus with 32 samples.

Results

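The sortilin family comprises Sort1, Sorl1, Sorcs1, Sorcs2 and Sorcs3, and its transcripts were followed in brown adipose tissue of mice that lacked either every isoform of the glucose-responsive transcription factor ChREBP or the β isoform alone. The probes examined were those that carry the name of 1 of these 5 genes on the array and that were also present in the deposited value table. Of 13 such probes on the array, 10 were in the table, out of 37304 probes in all: 4 for Sorcs2, 3 for Sort1, 2 for Sorl1, 1 for Sorcs1 and 0 for Sorcs3. The family is thus 5 genes, 4 of them measured, among 24523 gene names with a measured probe. The family was taken up because of the fall of Sorcs2 in total ChREBP-KO mice, so values of its probes in that comparison are given as a description, with no test.

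RNA of interscapular brown fat was hybridised to 32 single-colour arrays in 4 groups of 8. The groups were total ChREBP-KO mice, which are Mlxipl-null and lack ChREBPα and ChREBPβ, their WT littermates, ChREBPβ-deficient mice, in which CRISPR/Cas9 removed sequence of the β-specific exon 1b, and the WT littermates of that line. The mice were C57BL6/J males on a regular diet. Every animal, WT included, was fasted for 24 hours and then refed for 18 hours with food and 20% glucose in the drinking water. Their age and, for the arrays, which of the ChREBPβ-deficient lines was used are not given in the sources used here. Both deletions act in all tissues, so a change in brown fat need not arise within brown adipocytes. The labels do not name litters or cages.

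Sortilin family members are transmembrane receptors with a VPS10P domain that move cargo proteins between the Golgi apparatus, endosomes and the cell surface. Sort1 (sortilin) takes part in forming the insulin-responsive storage vesicles of adipocytes, which hold the glucose transporter Slc2a4, and binds proneurotrophins together with Ngfr. Sorl1 (SORLA, also called LR11) sorts the amyloid precursor protein and the insulin receptor, and its shed ectodomain is known to restrain thermogenesis in adipose tissue. Sorcs1, Sorcs2 and Sorcs3 are best known from neurons, where Sorcs2 acts as a proneurotrophin receptor with Ngfr.

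Sorcs2 and Sorl1, the members with the largest differences, were read by probes assigned to different transcripts or to different ends of 1 transcript, so the start of each probe is shown. The first 30 of 60 bases are printed 5′ to 3′ in lower case, as the scanner files give them.

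Sorcs2 A_55_P2812793: tacctgacatgtgggcatagcagaggtgat
Sorcs2 A_66_P111543: attcttagaagagcagacagctgctaggac
Sorcs2 A_52_P279845: gagaccatttagtaacaattacagtccaag
Sorcs2 A_55_P2042151: ccagcctggtgtcaccactgtcattgacaa
Sorl1 A_55_P2151609: gttgatggtttattttaaaagatgcacttt
Sorl1 A_66_P123824: tataacttcgatcgcctcggctaggtttcc

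Sorcs2 lies on the minus strand of chromosome 5 in mm9, the build of the probe coordinates. A_55_P2812793 maps to chr5:36359872-36359931 and starts at base 5619 of the RefSeq transcript NM_030889. A_55_P2042151, at chr5:36496473-36496532, starts at base 681 of the same transcript, so these probes read its distal and proximal parts. Between them lie A_66_P111543 at chr5:36403788-36403847, which is assigned to the Ensembl transcript ENSMUST00000137040, and A_52_P279845 at chr5:36493150-36493209, which is assigned to the cDNA AK047881. NM_030889 is not listed for these other two probes, and whether they lie in exons of it was not determined here. The proximal Sorcs2 probe, A_55_P2042151, lies 99.1 Mb from the brightest probe of Mlxipl, which encodes ChREBP and is on the same chromosome. The Sorl1 probes map to chr9:41776572-41776631 and chr9:41772997-41773056 on the minus strand, both toward the 3′ end of the transcripts they name.

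Mlxipl was examined first as a check of the labels. Its brightest probe, A_55_P2119957, averaged 16.15 ± 0.12 (SD, n = 8) on the log2 intensity scale in WT and 13.67 ± 0.15 in total ChREBP-KO mice, and of 16.34 ± 0.14 in WT and 14.84 ± 0.10 in ChREBPβ-deficient mice. The probe lies outside exon 1b and does not read that deletion itself. It was lower in all 8 arrays of both knockout groups, with an adjusted p of 7.09e-17 for ChREBPβ deficiency. All 10 brown adipocyte markers were well above background on every array, and Ucp1, the uncoupling protein of brown fat, had group means between 18.43 and 18.53. All 10 skeletal muscle markers were also measured, and their summed level on the log2 scale was 17.06 to 20.23 in the groups of the total line against 9.31 to 16.59 in those of the ChREBPβ line. The 7 liver markers ranged from 8.44 to 16.38 over all groups. Arrays of 1 group correlated at 0.984 to 0.997 across probes, and 64.4% to 71.1% of spots were well above background.

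Sorcs2 was almost lost from brown fat without ChREBP, whereas without ChREBPβ its brightest probe stayed close to the WT level. The 3′ probe A_55_P2812793 ranged from 12.85 to 13.51 in WT, with a median of 12.97, and from 5.996 to 6.38 in total ChREBP-KO mice, with a median of 6.13. Every WT array thus lay far above every knockout array. The log2 difference was -6.91 ± 0.10 (SE), a 120.2-fold lower intensity, and 1 of 37306 probes fell further. Within each of the 4 wash batches the difference was between -7.17 and -6.77. In ChREBPβ-deficient mice the same probe ranged from 12.45 to 13.29, median 13.06, against 12.91 to 13.47, median 13.13, in their WT littermates, and 6 of 8 knockout arrays lay within the WT range. The log2 difference was then -0.17 ± 0.10 with a 95% confidence interval of -0.37 to 0.04, and did not pass the test (adjusted p = 0.519). In order of their means, the WT group of the ChREBPβ line (13.17), the WT group of the total line (13.05) and ChREBPβ-deficient mice (13.00) overlapped, and only total ChREBP-KO mice (6.14) stood apart.

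The other Sorcs2 probes were dimmer, and their falls in total ChREBP-KO mice ended at or near background. A_66_P111543 ranged from 7.83 to 9.24, median 8.48, in WT and from 4.25 to 4.58, median 4.36, in total ChREBP-KO mice. It was well above background on all 8 WT arrays and on 0 of 8 knockout arrays. Only a bound can thus be given, at least 15.5-fold lower on the normalized median signal. A_52_P279845 ranged from 7.11 to 7.95, median 7.46, in WT and from 4.12 to 4.55, median 4.38, in knockout arrays. It too was well above background on 0 of 8 knockout arrays, and was at least 7.47-fold lower on that signal. For these bounds, a knockout array counted at its own signal or, if higher, at the dimmest signal that still passed as well above background on that array, and the WT mean was set against the mean of these. Both probes entered the value table through the groups in which they were bright. A_55_P2042151, at the proximal end of NM_030889, ranged from 6.25 to 6.81, median 6.47, in WT and from 4.82 to 5.32, median 5.07, in knockout arrays, and was well above background on all of them. Its log2 difference was -1.45 ± 0.09. As on the 3′ probe, no knockout array reached the WT range on any of the Sorcs2 probes. Background handling moved the sizes: the difference of A_66_P111543 was -7.29 on the processed signal and -2.82 after normexp correction, that of A_52_P279845 was -6.05 and -1.92, and that of A_55_P2042151 was -2.30 and -0.83. The normexp correction used an offset of 50. Its differences for A_66_P111543 and A_52_P279845 were smaller than the bounds above, which hold for the normalized median signal only.

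**Figure D1:**
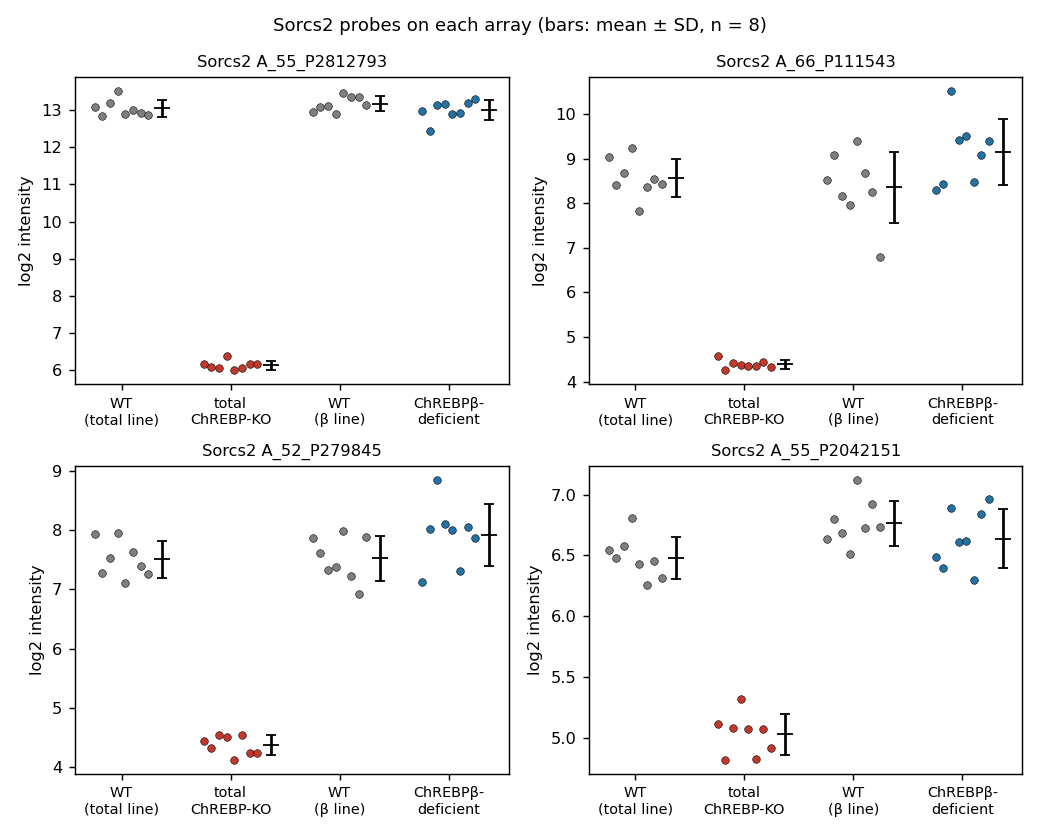
Log2 intensity (vertical axis) of the 4 Sorcs2 probes on each of 32 arrays, grouped by genotype along the horizontal axis. Points are arrays, and the bar beside each group is its mean ± SD (n = 8). Total ChREBP-KO arrays sit below all other arrays on each probe, while the groups of the ChREBPβ line overlap.

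In ChREBPβ-deficient mice the Sorcs2 probes leaned in different directions, and none passed the test. A_66_P111543 ranged from 8.30 to 10.51, median 9.24, against 6.79 to 9.40, median 8.39, in WT, and 7 of 8 knockout arrays lay above the WT mean. The log2 difference was 0.78 ± 0.28 with a confidence interval of 0.22 to 1.35 (adjusted p = 0.142). Without WT replicate 5 of the ChREBPβ line it became 0.93 and passed (adjusted p = 0.0450). A_52_P279845 ranged from 7.13 to 8.84, median 8.02, against 6.91 to 7.98, median 7.50, a difference of 0.39 ± 0.17 (adjusted p = 0.297). A_55_P2042151 ranged from 6.30 to 6.96, median 6.61, against 6.51 to 7.12, median 6.73, a difference of -0.13 ± 0.09 (adjusted p = 0.639). Within wash batches 1 to 4 the difference was -0.22, 1.26, 1.07 and 0.19 for A_66_P111543 and -0.0021, 0.91, 1.06 and -0.40 for A_52_P279845, so that neither kept its direction in every batch. The differences of the probes that do not name NM_030889 were thus positive and those of the probes that do were negative, while the ranges of the groups overlapped on each.

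The spacing between these pairs of probes on the same array gives the same contrast as a single value. The mean of A_66_P111543 and A_52_P279845 minus that of A_55_P2812793 and A_55_P2042151 was -2.03 ± 0.41 on the log2 scale (SD, n = 8) in WT mice of the ChREBPβ line and -1.29 ± 0.51 in ChREBPβ-deficient mice. It ranged from -2.60 to -1.58 and from -2.02 to -0.34, so the groups overlapped. In WT mice of the total line it was -1.73 ± 0.25. The pairing was read from the probe annotation after the values had been seen, and no test was made. Over the 32 deviations from the group means, which share arrays and normalization, A_66_P111543 correlated at 0.61 with the mean of the Schwann cell markers and at -0.48 with that of the brown adipocyte markers. For A_52_P279845, the other probe of its pair, these correlations were only 0.22 and -0.16. They were 0.21 and -0.41 for A_55_P2812793 and 0.34 and -0.39 for A_55_P2042151. All 7 Schwann cell markers were measured, none was at background, and their summed level was 13.75 to 14.79 in WT and 14.85 to 15.27 in ChREBPβ-deficient mice. Of these 7, S100b, a calcium-binding protein, passed the test at a difference of 0.84 (adjusted p = 0.00773), and the other 6 differed by -0.06 to 0.15. S100b was also 2.59 higher in total ChREBP-KO mice, where all Sorcs2 probes were lower. The part of these markers in the Sorcs2 values was not tested. In bulk tissue, fewer cells that express a gene and less RNA per cell cannot be told apart.

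Sorl1 was lower in total ChREBP-KO mice too, but remained well detected. A_55_P2151609 ranged from 12.92 to 13.37, median 12.96, in WT and from 10.17 to 10.94, median 10.44, in total ChREBP-KO mice, a log2 difference of -2.54 ± 0.14 or 5.80-fold. A_66_P123824 ranged from 11.82 to 12.11, median 11.91, and from 8.47 to 9.66, median 8.70, a difference of -3.08 ± 0.17 or 8.44-fold. Both probes separated the groups fully and were well above background on all arrays. Within wash batches the differences were -2.94 to -2.06 for the former and -3.36 to -2.49 for the latter. Markers of other cells fell in the same comparison: 5 of 6 macrophage markers, by -1.04 (Mrc1) to -0.53 (Csf1r), with Itgam at -0.0069, and 2 of 4 fibroblast or progenitor markers, Col1a1 (-1.09) and Pdgfra (-0.58). Of 6 neuron markers 2 fell (Th by -0.77) and 2 rose, and of 5 endothelial markers 2 fell. Smooth muscle or pericyte markers had 2 lower and 1 higher, brown adipocyte markers 2 lower and 4 higher, and liver markers 1 lower. Lymphocyte, Schwann cell and white adipose lists had 1 higher each. In WT mice of the ChREBPβ line, 5 of 6 macrophage markers were likewise lower than in WT mice of the total line, by up to -1.14 (Mrc1), and Itgam was called higher, by 0.31. The Sorl1 probes differed there by -0.23 and -0.03. The deviations of the Sorl1 probes correlated with the macrophage list at 0.04 and 0.12 and those of the Sorcs2 probes at -0.26 to -0.20, over 32 arrays. The part of these markers in the Sorl1 and Sorcs2 values was not tested.

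Sorl1 was also the member that passed the test in ChREBPβ-deficient mice, on 1 of its 2 probes. A_66_P123824 ranged from 10.65 to 11.68, median 11.35, against 11.25 to 12.47, median 11.89, in WT littermates. All 8 knockout arrays lay below the WT mean, but 5 of them lay within the WT range. The log2 difference was -0.65 ± 0.17 with a confidence interval of -0.99 to -0.30 (adjusted p = 0.0310), or 1.57-fold lower. A_55_P2151609 ranged from 11.92 to 12.71, median 12.40, against 12.22 to 13.42, median 12.85. Its difference was -0.48 ± 0.14 (adjusted p = 0.0655), again with all 8 knockout arrays below the WT mean. That probe passed without WT replicate 5 or 7 or knockout replicate 3, where adjusted p lay between 0.0158 and 0.0392. The deviations of the 2 probes from the group means correlated at 0.92 over 32 arrays. Levels without ChREBPβ remained far above those without any ChREBP, where the ranges ended at 9.66 and 10.94.

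This smaller fall was not even over the wash batches named in the labels. On A_66_P123824 the difference was -1.46 in wash batch 1, with 1 WT and 2 knockout arrays, -0.62 in batch 2 (3 and 2), -0.17 in batch 3 (1 and 3) and -0.08 in batch 4 (3 and 1). On A_55_P2151609 the respective differences were -1.28, -0.51, 0.05 and -0.09. The 4 WT arrays of batches 1 and 2 ranged from 11.94 to 12.47 on A_66_P123824 and the 4 of batches 3 and 4 from 11.25 to 11.84, whereas ChREBPβ-deficient arrays had means of 11.28 and 11.19 and WT arrays of the total line means of 11.96 and 11.87. With wash batch as a block the adjusted p of A_66_P123824 was 0.0882 (difference -0.54), and with slide as a block it was 0.620 (difference -0.36). In a fit of the ChREBPβ line alone it was 0.116. The call was also lost without WT replicate 1, 2, 3 or 4, or without ChREBPβ-deficient replicate 4, 7 or 8, where adjusted p lay between 0.0519 and 0.0833.

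**Figure D2:**
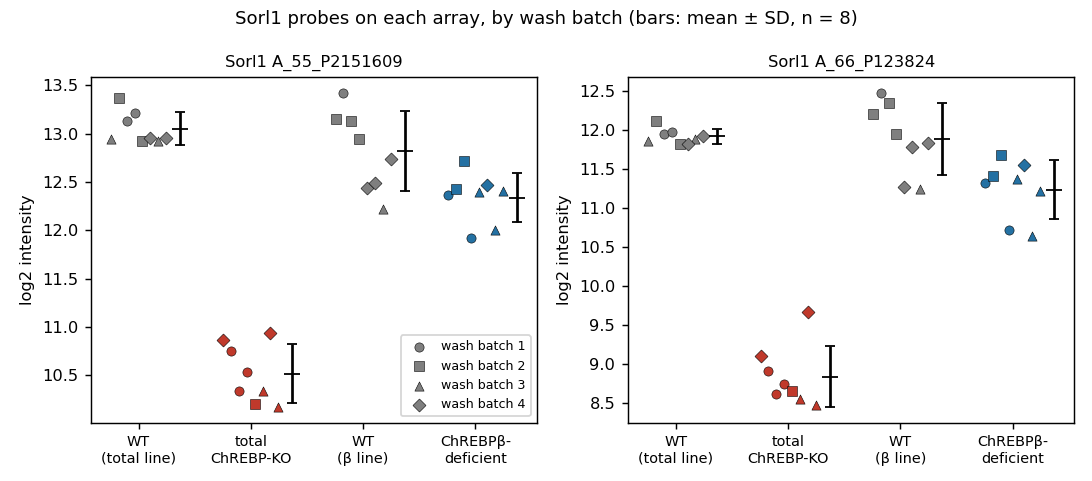
Log2 intensity (vertical axis) of the 2 Sorl1 probes on each array by group, with the wash batch shown by the marker shape and the mean ± SD (n = 8) beside each group. Both probes fall in total ChREBP-KO mice, and in the WT group of the ChREBPβ line the arrays of batches 1 and 2 lie above those of batches 3 and 4.

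The Sorl1 promoter was inspected because ChREBP binds DNA at E-box sequences. The RefSeq promoter table (GRCm38.p6), which spans 250 bases before to 50 after each gene start, holds entries for 3 of the 5 genes: Sorl1, Sorcs1 and Sorcs3. The hexamer CACGTG, which reads the same on both strands, occurs in 7.15% of all 32851 promoters of that length. It occurs once in 1 of the 4 promoters of these genes, 19 bases upstream of the distal start of Sorl1. A pair of these hexamers with any 5 bases between them was found in 0 of the 32851 promoters. With no match anywhere, this exact search cannot tell the sortilin genes from others, and inexact pairs were not searched. The 250 bases upstream of that Sorl1 start, chr9:42124298-42124547 on the minus strand, are printed with the hexamer in capitals. The match describes the sequence and says nothing of binding.

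Sorl1 upstream region: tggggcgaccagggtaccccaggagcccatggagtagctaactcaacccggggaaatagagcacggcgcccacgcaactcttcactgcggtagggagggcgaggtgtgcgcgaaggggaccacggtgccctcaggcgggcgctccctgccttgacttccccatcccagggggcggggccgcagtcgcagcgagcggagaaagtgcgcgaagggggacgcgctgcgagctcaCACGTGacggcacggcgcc

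Differences of Sort1 were small in both knockouts, at most 0.35 on the log2 scale in the main fit. The brightest probe, A_55_P2503990, ranged from 13.26 to 13.73, median 13.35, in WT and from 13.28 to 13.81, median 13.48, in total ChREBP-KO mice, a log2 difference of 0.11 ± 0.07. A_55_P2927762 ranged from 8.78 to 9.22 in WT and from 9.24 to 9.52 in total ChREBP-KO mice, so that the groups did not overlap although the difference was 0.35 ± 0.07. A_55_P2076683 went from 7.45 to 7.63 in WT and from 7.58 to 7.88 in knockout arrays, a difference of 0.19 ± 0.06. All 3 probes were thus higher on average without ChREBP, except that A_55_P2503990 differed by -0.012 on the processed signal. The difference of A_55_P2927762 ranged from 0.33 to 0.49 over 13 other settings of the analysis. In ChREBPβ-deficient mice the differences were 0.014 ± 0.069 (adjusted p = 0.973), 0.10 ± 0.07 (adjusted p = 0.597) and 0.0034 ± 0.0575 (adjusted p = 0.990) in that order. The widest of the 3 confidence intervals ran from -0.04 to 0.25, so a change of the size seen for Sorl1 lay outside them.

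Sorcs1 was dim and Sorcs3 was not well above background in this tissue. Sorcs1 A_55_P2044587 was well above background on all 32 arrays but dim, with raw intensities of 48 to 94.5. It ranged from 5.82 to 6.24 in WT and from 5.82 to 6.24 in total ChREBP-KO mice, and from 5.70 to 6.36 in WT and from 5.76 to 6.20 in ChREBPβ-deficient mice. The ranges overlapped, with a difference of 0.04 ± 0.08 for total ChREBP loss, which was -0.041 with slide as a block, and 0.013 ± 0.085 for ChREBPβ loss (adjusted p = 0.980). The other 2 probes of Sorcs1 and the only probe of Sorcs3 were well above background on 0 arrays, with raw intensities no higher than 43.5, and were left out of the tests.

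**Figure D3:**
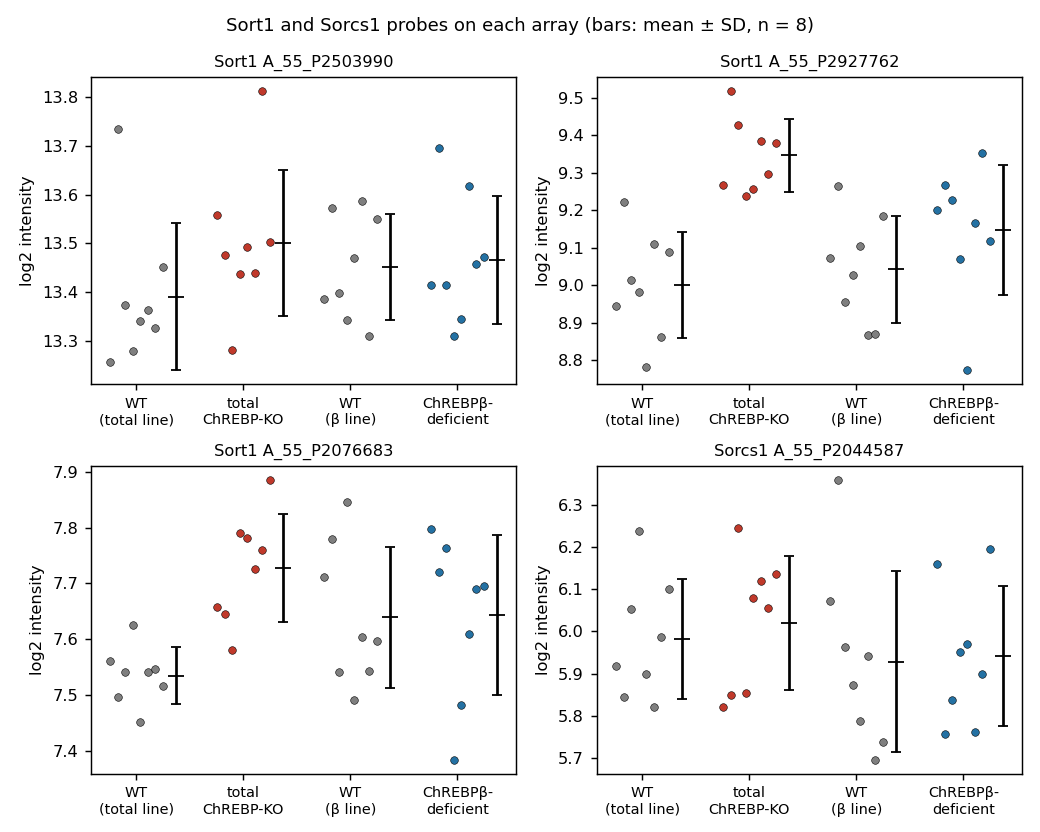
Log2 intensity (vertical axis) of the 3 Sort1 probes and the Sorcs1 probe on each array by group, with the mean ± SD (n = 8) beside each group. The groups overlap on each probe except for Sort1 A_55_P2927762, where total ChREBP-KO arrays lie above all WT arrays of their line.

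Taken over the 10 probes, the comparisons differed in how much of the array moved with them. Without any ChREBP 8 of 10 probes were called, 6 lower and 2 higher, and 7 did not overlap with WT. Of all probes 43.2% were called there, 20.5% lower and 22.7% higher, and 15.6% did not overlap. Since Sorcs2 was chosen on this comparison nothing is read from these counts. In ChREBPβ-deficient mice 1 of 10 was called, and was lower, against 2.55% of all probes called, 1.26% lower and 1.3% higher, and 0 of 10 did not overlap, against 0.365%. An unadjusted p under 0.05 was found for 4 of the 10 probes in limma, against 13.6% of all probes, and the median difference of the 10 was 0.0083 against 0.00017 over all probes. For the ChREBPβ effect minus the total effect, 6 of 10 probes were called, all higher, against 24.1% of all probes and 11.7% higher, again with nothing read from the count. On the log2 scale this difference was 6.74 ± 0.14 for Sorcs2 A_55_P2812793, 2.43 ± 0.24 for Sorl1 A_66_P123824 and -0.10 ± 0.10 for Sort1 A_55_P2503990.

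**Figure D4:**
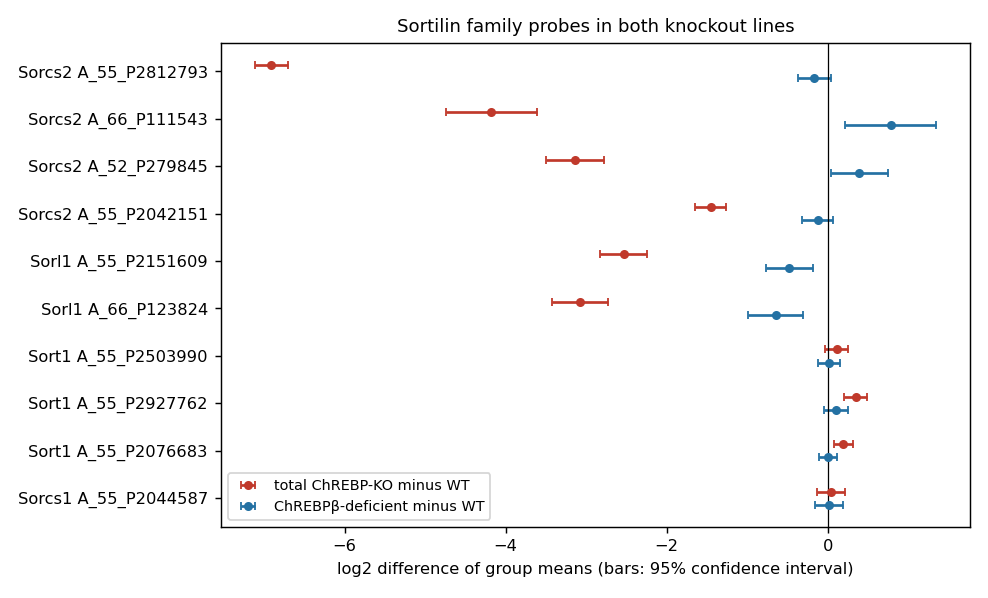
Log2 difference of group means (horizontal axis) for each of the 10 probes (vertical axis), knockout minus WT littermates, in total ChREBP-KO mice (red) and ChREBPβ-deficient mice (blue). Points are estimates from the fit over 32 arrays and bars are 95% confidence intervals. Sorcs2 and Sorl1 lie far to the left in total ChREBP-KO mice, while in ChREBPβ-deficient mice the points lie between -0.65 and 0.78.

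Because each knockout had its own littermates, WT mice of the ChREBPβ line were also set against those of the total line. This comparison shares the total-line WT arrays with the one that chose Sorcs2. It called 1 of 10 probes, which was higher, against 39.2% of all probes and 24.2% higher. All 10 skeletal muscle markers were lower in WT mice of the ChREBPβ line, with log2 differences of -7.09 to -5.82. With the muscle and liver marker means as covariates, 0 of the 10 family probes were called, against 15.2% of all probes. Sorcs2 A_55_P2042151 was 0.28 ± 0.09 higher in WT mice of the ChREBPβ line (adjusted p = 0.0166), with 8 of 8 arrays above the mean of the total line and 6 of 8 within its range. The call was lost with slide as a block (adjusted p = 0.0884), with array weights (0.0689) and with the muscle and liver marker means as covariates (0.270). For the other Sorcs2 and Sorl1 probes the differences lay between -0.23 and 0.12, with adjusted p of 0.200 or more. Sort1 and Sorcs1 probes differed by -0.05 to 0.10.

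Across all 32 arrays, the genes whose log2 values were most like those of Sorcs2 A_55_P2812793 were identified. Among 16889 named genes, each read by its brightest probe, the highest Pearson correlations were with the fructose transporter Slc2a5 (0.997), ATP citrate lyase Acly (0.995), acetyl-CoA carboxylase Acaca (0.994), hexokinase Hk2 (0.991) and the glycogen phosphorylase Pygl (0.991). These correlations share the arrays and the gap between total ChREBP-KO mice and the rest. Slc2a5 differed by -8.99 and Acly by -3.58 on the log2 scale in total ChREBP-KO mice, and by -0.0078 and -0.14 in ChREBPβ-deficient mice. Once the group means were removed, the genes most like Sorcs2 were others, Iars, Wdr12, Ppp1r15a, Tma16 and Polr1a, at 0.75 to 0.78. The genes most like Sorl1 A_55_P2151609 were malic enzyme Me1 (0.988), phosphogluconate dehydrogenase Pgd (0.983), Sema4a (0.982), Garnl3 (0.980) and Adap1 (0.976). For Sort1 the highest correlation was 0.78, with Mtmr4, and for Sorcs1 it was 0.72, with Gpha2.

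The known ligands and partners of the family were then examined, each by its brightest probe, from a list of 46 genes of which 45 were measured. Without any ChREBP 11 rose, 15 fell and 19 did not pass the test, a share of 57.8% called against 44.1% of all genes (22.9% higher and 21.1% lower), with a median difference of -0.04 against 0.014. In ChREBPβ-deficient mice 2 rose, 0 fell and 43 did not pass, 4.44% against 2.7% of all genes (1.37% higher and 1.33% lower), with a median of 0.0040 against -0.0030. A gene that did not pass by its brightest probe could still have another probe called. In total ChREBP-KO mice these were Grn (2 of 3 probes), Lnpep (3 of 4), Ntrk2, Gga2, Vps26b, Vps29, Snx2 and Furin. In ChREBPβ-deficient mice 1 of 2 Furin probes and 1 of 3 Lrp1 probes were called. Called genes could likewise have probes that were not called.

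Of the 11 ligands, 6 rose, 3 fell and 2 did not pass in total ChREBP-KO mice. Nts, the neuropeptide neurotensin after which Sort1 was also named, rose from 5.80 ± 0.54 (SD, n = 8) to 7.97 ± 0.35, a log2 difference of 2.17 ± 0.20 (SE, adjusted p = 1.26e-10). Nts was dim in these WT mice, and over 12 other settings of the analysis its difference ranged from 1.61 to 2.76. Lpl, the lipoprotein lipase that sorting receptors of this family can bind, rose by 0.91 ± 0.10 (adjusted p = 6.68e-09), and 3 of its 6 probes were called. Apoe, an apolipoprotein taken up through such receptors, rose by 0.77 ± 0.09 (adjusted p = 3.94e-08). In each case all 8 knockout arrays lay above the WT mean. Ligand transcripts did not pass the test in ChREBPβ-deficient mice, 0 of 11.

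Of the 7 coreceptors measured, 1 rose, 4 fell and 2 did not pass in total ChREBP-KO mice. The neurotensin receptors parted: Ntsr1 rose from 5.48 ± 0.12 to 6.22 ± 0.21, by 0.74 ± 0.08 (adjusted p = 1.81e-09), whereas Ntsr2 fell from 7.36 ± 0.17 to 5.89 ± 0.47, a difference of -1.47 ± 0.18 (adjusted p = 4.63e-08). Ntsr1 was dim in all groups and Ntsr2 in total ChREBP-KO mice. Over 12 other settings of the analysis their differences ranged from 0.44 to 1.13 and from -1.88 to -1.05. Ntrk3, the receptor tyrosine kinase for neurotrophin-3, fell from 12.11 ± 0.51 to 11.01 ± 0.94, a difference of -1.10 ± 0.28 (adjusted p = 0.00151). Nradd, a relative of Ngfr, fell by 0.64 on the log2 scale, with an SE of 0.12 (adjusted p = 6.59e-05). In ChREBPβ-deficient mice Ngfr, the low-affinity neurotrophin receptor that pairs with Sort1 and Sorcs2, rose from 8.24 ± 0.16 to 8.54 ± 0.11, by 0.31 ± 0.08 (adjusted p = 0.0336), with all 8 arrays above the WT mean. In mice without any ChREBP it fell by 0.22 (adjusted p = 0.0240). The ChREBPβ call for Ngfr was lost with slide as a block (adjusted p = 0.0562) and with replicate number as a block (adjusted p = 0.0535). It was also lost without WT replicate 1, 2, 3, 4, 6 or 8, or without knockout replicate 2, 4, 5 or 6, where adjusted p lay between 0.0538 and 0.0785.

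Of 14 adaptor and retromer genes, 2 rose, 4 fell and 8 did not pass in total ChREBP-KO mice, and 0 passed in ChREBPβ-deficient mice. Among the 6 proteolytic processing genes, 1 rose, 1 fell and 4 did not pass without ChREBP, and 0 passed without ChREBPβ, each by its brightest probe. Of the 2 Furin probes, the dimmer was called in each comparison. Both of the other sorting receptors listed, M6pr and Igf2r, which carry mannose 6-phosphate-tagged cargo, fell in total ChREBP-KO mice, with differences of -0.28 and -0.23 (adjusted p = 2.58e-05 and 0.000132).

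Of the 5 storage vesicle genes, 1 rose, 1 fell and 3 did not pass in total ChREBP-KO mice. Slc2a4, the insulin-responsive glucose transporter, fell from 16.53 ± 0.06 to 15.55 ± 0.10, a difference of -0.98 ± 0.05 (adjusted p = 1.83e-17), and both of its probes were called. In ChREBPβ-deficient mice it differed by 0.12 (adjusted p = 0.201). Lnpep, the insulin-regulated aminopeptidase that travels in the same vesicles, rose there from 10.64 ± 0.12 to 10.81 ± 0.10, by 0.17 ± 0.05 (adjusted p = 0.0372), and 2 of its 4 probes were called. That call was lost under 7 of 13 other settings of the analysis and without WT replicate 1, 2, 3, 4 or 6, or without knockout replicate 4, 6, 7 or 8, where adjusted p lay between 0.0587 and 0.0973.

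**Figure D5:**
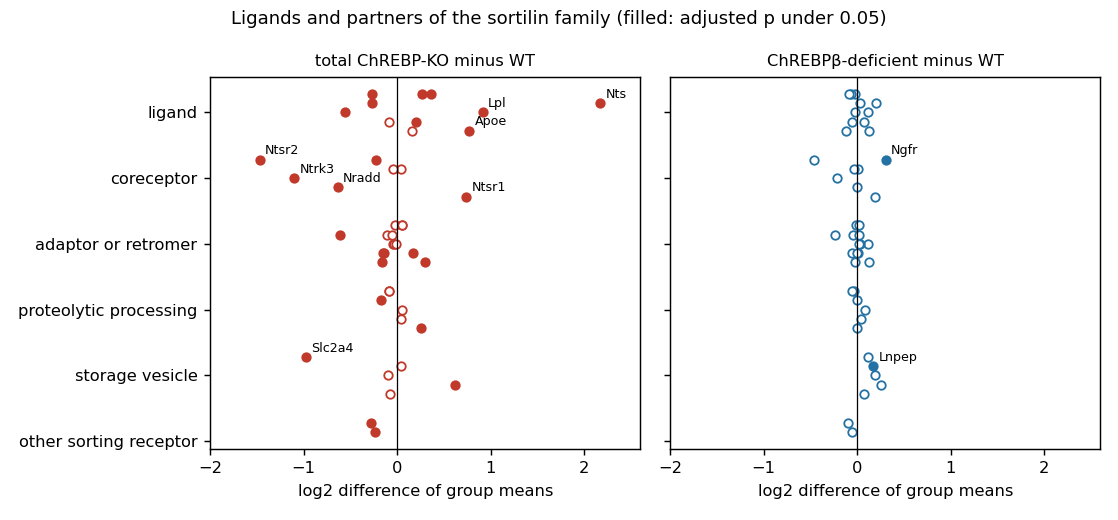
Log2 difference of group means (horizontal axis) for 45 ligands and partners of the sortilin family, sorted by class (vertical axis), in total ChREBP-KO mice (left) and ChREBPβ-deficient mice (right). Filled points had an adjusted p under 0.05 and names mark the highest and lowest called differences. In total ChREBP-KO mice points spread from -1.47 to 2.17, while in ChREBPβ-deficient mice Ngfr and Lnpep are the filled points.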

How the data were processed

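The authors deposited scanner files that hold, per spot, the median pixel intensity written by Agilent Feature Extraction 10.10.1.1 (not normalized between arrays), and a log2 value table made by quantile normalization of the filtered spots, with the median taken where a probe was spotted more than once. The same steps were repeated here. Control spots were left out, and other spots entered when 26 of 32 arrays, or 6 arrays within 1 group, found them with a significant positive signal well above background. Intensities were log2 transformed, quantile normalized and reduced per probe, giving 37306 probes. The result differed from the deposited table by 0.0030 on average. Groups came from the genotype label.

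Each probe was fitted with limma 3.58.1 (R 4.3.3; lmFit, eBayes) over all arrays with 4 group means. Every test was two-sided. Each adjusted p printed is limma's after Benjamini-Hochberg adjustment across all probes, and a probe was called when it was under 0.05. A gene was represented by its brightest probe. Alternatives covered background correction, scaling, the deposited table, filters, wash batch, slide, replicate number, array weights, the groups compared only, marker covariates, and leaving out each array. The fit was tested on simulated data. Figures used Python 3.11.15 and matplotlib 3.10.9.

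Members, partner list and marker lists were chosen with earlier results of these data known. Named genes were all member probes, Mlxipl, per knockout comparison the 4 highest and 4 lowest called partners with all 8 arrays on 1 side of the WT mean, and the 5 genes most like each member. M6pr, Igf2r, every marker gene named with a value and the genes beside Sorcs2 were named after their values were seen. The listed markers Hoxc10, Nefl and Cd79a were not measured. The labels do not name animals or litters, so p values measure the spread between arrays, and their number limits the precision. Of the marker lists, the summed log2 levels over the 4 groups ranged from 19.94 to 20.30 for brown adipocyte, 13.13 to 15.84 for white adipose, 12.77 to 13.83 for neuron, 13.58 to 14.38 for macrophage (carried by its brightest marker, Itgam), 9.11 to 9.80 for lymphocyte, 13.21 to 14.23 for endothelial, 13.78 to 14.75 for smooth muscle or pericyte and 14.29 to 15.55 for fibroblast or progenitor markers.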

Additional observations from a re-analysis of the deposited data

Results flagged for a closer look

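In 3 of 92 sets of 8 arrays, 1 array lay far from the other 7 by Dixon's test, which chance alone would give in about 1 of 20 sets. The sets were the member probes, Mlxipl, the highest and lowest called partners, Afap1 and Psapl1, in each of 4 groups. Sorcs2 A_55_P2812793 was at 6.38 in total ChREBP-KO replicate 4, where the next array was at 6.18. Sort1 A_55_P2503990 was at 13.73 in WT replicate 2 of the total line, where the next was at 13.45. Ntrk3 was at 8.92 in total ChREBP-KO replicate 7, where the next was at 10.55, and its log2 difference without that array was -0.80.

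For 8 of the 10 partner genes named, limma's test of the difference between the effects of total ChREBP loss and ChREBPβ loss had an adjusted p under 0.05, against 24.1% of all probes. These genes were picked for a called effect in 1 of those comparisons on the same arrays, which favours such a result, so the count and p values are a description and no independent test. The ChREBPβ effect minus the total effect on the log2 scale was 1.01 for Ntsr2 (adjusted p = 0.00339), 1.097 for Slc2a4 (adjusted p = 3.43e-14), 0.63 for Nradd (adjusted p = 0.00666), -0.54 for Ntsr1 (adjusted p = 0.000336), -0.64 for Apoe (adjusted p = 0.000438), -0.94 for Lpl (adjusted p = 7.34e-06), -1.97 for Nts (adjusted p = 2.82e-06) and 0.53 for Ngfr (adjusted p = 0.000768). For Ngfr the effects had opposite signs, and all 8 knockout arrays of each line lay on their own side of the WT mean. The remaining pair, Ntrk3 and Lnpep, did not pass this test (adjusted p = 0.0984 and 0.134).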

How the results depend on the processing

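The count of family probes called in ChREBPβ-deficient mice, 1 of 10, became 0 with wash batch as a block, with slide as a block and with the compared groups only, 2 with the replicate block, array weights or a stricter filter that asked for every spot flag (found, significant, well above background) on all arrays, and lay between 0 and 3 when single arrays were left out. The replicate numbers do not pair the samples: deviations of same-numbered arrays correlated at -0.30 to 0.08 in the total line and -0.20 to 0.53 in the ChREBPβ line, where 6 of 8 were over 0.1 and the other two were not, and no array correlated best with its own number. With the replicate block, Sorl1 A_55_P2151609 was called in ChREBPβ-deficient mice (adjusted p = 0.0428), and Ngfr (0.0535) and Lnpep (0.0599) were not, although 2 partner genes were still called. The call between WT groups, 1 of 10, became 0 with that filter, slide, array weights or marker covariates (filter and covariates chosen after seeing the data), and stayed at 1 without any single array. In total ChREBP-KO mice 8 of 10 became 4, and for the difference between knockout effects 6 became 3, under the stricter filter, which kept 6 of the 10 probes and left out 3 of Sorcs2 and Sort1 A_55_P2076683. Partner genes called in ChREBPβ-deficient mice, 2 of 45, became 1 with either 75th percentile scaling, without a filter or with the compared groups only, 0 with slide, and 0 to 4 without single arrays. In total ChREBP-KO mice the count of 26 lay between 19 and 26 in the 13 alternatives and when single arrays were left out; with the processed signal and normexp, 44 of 45 genes had a value. The Sorcs2 and Sorl1 falls in total ChREBP-KO mice kept their direction in every alternative run. For the 3′ Sorcs2 probe the difference was between -7.40 and -6.31.

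Signs changed for the following differences, none of which passed the test. In ChREBPβ-deficient mice, Sort1 A_55_P2503990 was -0.043 with the processed signal and -0.019 with median scaling, and Sort1 A_55_P2076683 was -0.00098 with median scaling, -0.0021 with wash batch, -0.0097 with array weights and -0.0067 with marker covariates. Sorcs1 was -0.00031 with normexp, -0.020 with median scaling, -0.038 with wash batch, -0.026 with slide and -0.0035 with marker covariates. Between WT groups, Sorcs2 A_52_P279845 was -0.0072 and Sorl1 A_66_P123824 0.038 with array weights, and with marker covariates that Sorl1 probe was 0.0997 and Sort1 A_55_P2927762 -0.013. In total ChREBP-KO mice, Sort1 A_55_P2503990 was -0.012 with the processed signal and Sorcs1 was -0.041 with slide and -0.00017 with array weights. For the ChREBPβ effect minus the total effect, Sort1 A_55_P2503990 was 0.013 and Sorcs1 0.014 with slide, and Sorcs1 was 0.0029 with array weights and ran from -0.061 to 0.037 without single arrays. Without single arrays, Sort1 ran from -0.019 to 0.036 (A_55_P2503990) and from -0.019 to 0.040 (A_55_P2076683) and Sorcs1 from -0.023 to 0.075 in ChREBPβ-deficient mice, and between WT groups Sorcs2 ran from -0.36 to 0.017 (A_66_P111543) and from -0.049 to 0.10 (A_52_P279845) and Sorl1 A_66_P123824 from -0.12 to 0.060. Except where the filter or fewer arrays set the change, the cause was not tested. Dim probes have signals near background that limit their precision. These were Sorcs2 and Ntsr2 in total ChREBP-KO mice, Nts in WT mice of the total line, and Sorcs1 and Ntsr1 throughout.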

Other observations

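The genes on either side of Sorcs2 in the GRCm38.p6 gene order were also lower in total ChREBP-KO mice; they were chosen after their values were seen. Afap1, an actin-filament-associated protein and the nearest gene on the side of lower coordinates, differed by -1.42 on the log2 scale in total ChREBP-KO mice (limma, adjusted p = 4.60e-11) and by -0.57 in ChREBPβ-deficient mice (adjusted p = 0.00731). The latter call was lost with slide as a block (adjusted p = 0.0900) and with the compared groups only (adjusted p = 0.0832), and adjusted p lay between 0.00100 and 0.0230 without single arrays. Psapl1, a relative of prosaposin and the nearest gene on the other side, differed by -1.65 (adjusted p = 2.32e-05) and -0.26 (adjusted p = 0.799). Over 12 other settings of the analysis its difference in total ChREBP-KO mice ranged from -2.42 to -1.10.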
